A study of Mus musculus with 6 samples.

Results

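Hexim1, Cdk12, Ints13 and Aff1 encode regulators of RNA polymerase II after initiation. They were taken from a table of primary CD8+ T cells from the spleen of wildtype mice, exposed for 2 h either to the solvent DMSO or to DNR, daunorubicin, a topoisomerase II poison of the anthracycline class. All rows of the table whose RefSeq accession belongs to one of these genes were used, which gave 6 of the 1037 listed transcripts and 4 of the 847 named genes. The genes were chosen because earlier results on these same samples showed a difference in them between DNR and DMSO. Their levels and differences are therefore given as a description. Where the fit over the whole table also counts these transcripts, nothing about them is read from it. There were 3 samples per treatment, called biological replicates, and whether they came from separate mice is not stated.

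Soon after leaving a promoter, RNA polymerase II pauses, and the kinase P-TEFb releases it into elongation. HEXIM1, bound to the 7SK small nuclear RNA, holds P-TEFb in an inactive complex, and AFF1 is a scaffold of the super elongation complex, which carries active P-TEFb. CDK12, with its partner cyclin K, phosphorylates the polymerase tail within gene bodies and is known for keeping up the expression of long genes and for limiting the use of polyadenylation sites within introns. INTS13 is a subunit of Integrator, a complex that cuts RNA at paused polymerases and at small nuclear RNA genes.

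Levels are FPKM, which count fragments relative to transcript length and library size, and were deposited as log2(FPKM + 1). A log2 difference below is DNR minus DMSO, between group means on that scale. Testing was limited to the 388 transcripts with 1 FPKM or more in at least 3 samples, and all 6 transcripts described here are among them. The table is a heatmap matrix: of the tested transcripts, 99.7% passed the test (limma, threshold of 0.05 on the adjusted p) and 99.7% had groups that did not overlap, 43.0% passing as higher and 56.7% as lower in DNR. That the groups of a transcript do not overlap is thus near the background and says nothing particular about these genes. Depth is unknown, and between 583 and 594 transcripts were above 0 in each sample. The column codes ending in O and a number match the DMSO descriptions alone, the D codes were given to DNR as the remaining treatment, and every direction rests on this reading. Of 8 marker genes of CD8 T cells, 0 are among the listed genes, so the labelled cell type could not be checked.

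The sequences of Cdk12 come first because its full-length transcripts differed in opposite directions, and the coding parts of the 3 listed transcripts differ at the 3′ end. Cdk12 lies on chromosome 11 (GRCm38, chr11:98202433-98281101, plus strand). RefSeq gives it 11 transcripts, of which 3 are listed. In the matching GENCODE vM21 models, all 3 share their first 12 introns and the bases of exon 13 up to position 98245669. Exon 13 ends there in NM_001109626 and NM_001109628, and its end below means that position. NM_001109626 and NM_001109628 then continue into a last exon 14 and are called the full-length transcripts here. They use different splice acceptors, at 98249683 and 98249710. The first therefore holds 27 more coding bases, or 9 codons, with no change of reading frame and the same stop codon. NM_026952 does not splice there: it runs on into intron 13, meets a stop codon within 29 bases and ends 1035 bases past exon 13, so that it lacks the 677 coding bases of exon 14 common to the others. Each sequence below is given 5′ to 3′ from the transcript, starts with the last 24 bases of exon 13 (chr11:98245646-98245669), and shows in capitals what that transcript alone has. The capitals of NM_001109626 are chr11:98249683-98249709 and end in AG, the usual end of an intron, and those of NM_026952 are chr11:98245670-98245698 and begin with GT, the usual start of one.
NM_001109626: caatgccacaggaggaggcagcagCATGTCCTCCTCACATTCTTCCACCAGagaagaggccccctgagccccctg
NM_001109628: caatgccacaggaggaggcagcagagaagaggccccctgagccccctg
NM_026952: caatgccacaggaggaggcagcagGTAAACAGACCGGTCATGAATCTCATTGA

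**Figure D1:**
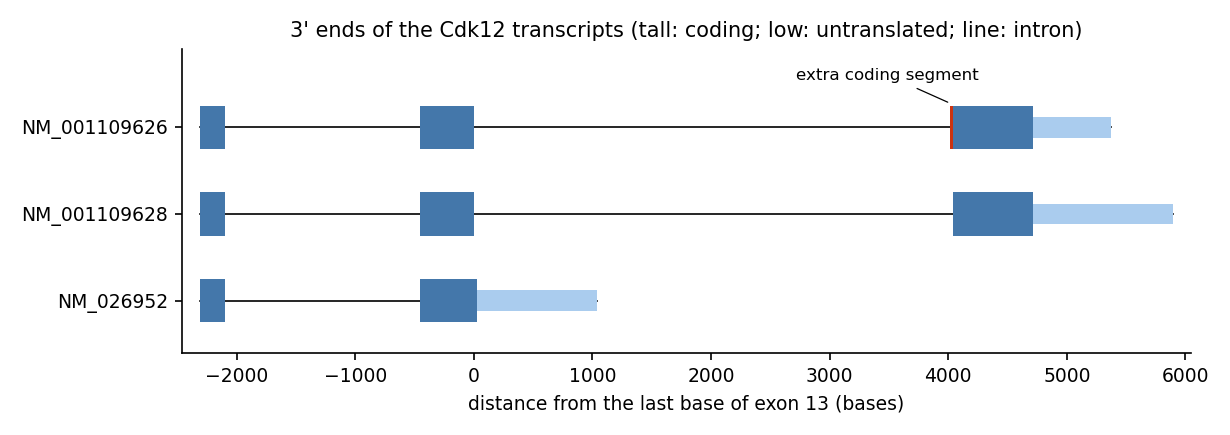
Map of the last part of the listed Cdk12 transcripts, by distance in bases from the last base of exon 13; tall boxes are coding, low boxes untranslated and lines introns. The red mark is the 27-base segment that only NM_001109626 of the 3 has, and NM_026952 ends inside the intron that the others remove.

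The full-length models also differ in their outer ends. In GENCODE, NM_001109628 starts 276 bases earlier and ends 520 bases later than NM_001109626, outside the coding part. The models hold 5143 exonic bases for NM_001109626, 5912 for NM_001109628 and 4837 for NM_026952. Fragments from the bases they share do not tell them apart, so the split between the transcripts is an estimate that rests on the acceptor and the outer ends. The program that made it is not given in the sources used here.

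Hexim1, the inhibitor of P-TEFb, was higher in DNR, with values close together within each group. NM_138753 measured 27.48, 27.55 and 27.25 FPKM in the DMSO samples, against 35.54, 36.09 and 34.40 FPKM after DNR. Every DNR sample was above every DMSO sample, by more than the whole spread within either group. The means were 27.4 ± 0.16 and 35.3 ± 0.86 FPKM (SD, n = 3), a ratio of 1.29 and a log2 difference of 0.35 ± 0.02 (SE between samples). The difference was 0.54 with samples at a common median and 0.41 with quantile normalization, so its size depends on the scaling by more than that SE. By level it ranked 91 among the 388 tested transcripts, and by size of difference 108 among those higher in DNR. Hexim1 (chr11:103116325-103119725) spans 3401 bases, has 1 exon and a single RefSeq transcript, so this value stands for the whole gene. Its paralog Hexim2 and the other P-TEFb and 7SK genes fixed for the list, among them Cdk9, Ccnt1, Ccnt2, Larp7, Mepce and Rn7sk, are not among the listed genes.

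The stretch upstream of Hexim1 is shown because Hexim1 was the only one of the 4 genes whose listed sum was higher in DNR as deposited. It runs from 103116075 to 103116230 on the plus strand of chromosome 11 (RefSeq promoter table, GRCm38.p6) and stops just before the GENCODE start. The capitals mark a match to TATATAA, a form of the TATA box, whose first base, at 103116202, lies 29 bases before that start. The RefSeq start, at 103116325, lies further downstream, so the match is farther from it. Which start is used in these cells was not tested.
Hexim1: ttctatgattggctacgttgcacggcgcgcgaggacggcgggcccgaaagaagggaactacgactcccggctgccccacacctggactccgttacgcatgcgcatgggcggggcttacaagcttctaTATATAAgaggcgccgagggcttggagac
Promoter windows of 300 bases, from 250 before to 50 after a RefSeq start, were searched on both strands for TATAAA and TATATAA as forms of the TATA box, for the CCAAT box by those letters, and for GGGCGG as the GC box. No motif is contained in another. TATATAA was found in the Hexim1 window and in none of the other 4 windows of these genes, against 3.24% of all 32851 windows. GGGCGG was found in all 5 windows, against 35.7% of all, and CCAAT in those of Hexim1 and Ints13, against 37.4%. TATAAA was found in none of the 5 windows, against 13.6% of all. The G and C content was 61.0% for Hexim1, 71.3% for Cdk12, 69.0% for Ints13 and 77.3% and 63.0% for the pair of Aff1 windows, against a median of 52.7%. GGGCGG holds only G and C, all 5 windows exceeded that median, and no share was computed for windows of like content. A match is only a match of letters, and no binding was measured.

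Aff1, the scaffold of the super elongation complex, had the most abundant listed transcript of the 4 genes, which was slightly lower in DNR. NM_133919 measured 58.61, 66.21 and 60.03 FPKM in the DMSO samples, against 53.60, 52.33 and 51.79 FPKM after DNR. The DNR samples lay close together below all DMSO samples, among which replicate 2 was high. The means were 61.6 ± 4.04 and 52.6 ± 0.93 FPKM (SD, n = 3), a ratio of 0.853 and a log2 difference of -0.22 ± 0.06. It ranked 53 by level and 190 by size of difference among the transcripts lower in DNR. Without DMSO replicate 2 the difference was -0.17. It was -0.039 once all samples had been set to a common median, so its size depends on the scaling. Aff1 (chr5:103692362-103855322) is the longest of the 4 genes, and 1 of its 3 RefSeq transcripts is listed, with 20 exons and 8323 exonic bases in GENCODE. The other members of that complex fixed for the list, Aff3, Aff4, Ell, Ell2, Ell3, Mllt1, Mllt3, Eaf1 and Eaf2, are not among the listed genes.

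Ints13, of the Integrator complex, was lower in DNR in its single listed transcript, at 0.329 of the DMSO level. NM_138757 measured 7.78, 6.36 and 10.15 FPKM in the DMSO samples, against 2.14, 2.11 and 3.73 FPKM after DNR. Replicate 3 was the highest in both groups, and the highest DNR sample stayed below the lowest DMSO sample. The means were 8.10 ± 1.91 and 2.66 ± 0.93 FPKM (SD, n = 3), a log2 difference of -1.32 ± 0.26. The difference ranked 24 among the transcripts lower in DNR. Ints13 (chr6:146549632-146577835, minus strand) has 7 RefSeq transcripts, of which this is the only one listed. Its GENCODE model has 18 exons and 2196 coding bases. A value for the whole gene can therefore not be given. Of the other Integrator genes on the list, Ints2 alone is listed, with 1 transcript at 1.43 FPKM in DMSO replicate 2 and at 0 in the other 5 samples, which was below the filter.

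For Cdk12, the elongation kinase, the full-length transcripts differed in opposite directions, while their sum as deposited differed by less than the replicate spread. NM_001109626, with the extra 27 bases, measured 11.59, 11.58 and 8.92 FPKM in the DMSO samples, against 2.79, 6.79 and 4.12 FPKM after DNR. It was the highest of the listed Cdk12 transcripts in every DMSO sample, and all DNR samples were lower. NM_001109628, without the segment, measured 1.77, 1.38 and 3.84 FPKM in the DMSO samples, against 10.28, 5.81 and 9.21 FPKM after DNR. It was the lowest of the listed Cdk12 transcripts in every DMSO sample and the highest in DNR replicates 1 and 3. The means were 10.7 ± 1.54 and 4.57 ± 2.04 FPKM for NM_001109626, a log2 difference of -1.13 ± 0.32, and 2.33 ± 1.32 and 8.43 ± 2.33 FPKM for NM_001109628, a log2 difference of 1.54 ± 0.38 (SD and SE, n = 3).

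The samples in which one full-length transcript was less extreme were those in which the other was too. In DMSO replicate 3 NM_001109626 was lowest and NM_001109628 highest of the DMSO group, and DNR replicate 2 was likewise the nearest of its group to DMSO in both. The full-length sum varied little over the samples, between 12.60 and 13.36 FPKM. A lower value of one thus came with a higher value of the other, so the matching order is not a separate result. NM_001109628 made up 13.2%, 10.6% and 30.1% of the full-length sum in DMSO and 78.7%, 46.1% and 69.1% in DNR. The groups did not overlap, but the spread was wide: 18.0 ± 10.6% against 64.6 ± 16.7% (SD, n = 3).

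Added together, the full-length transcripts came to 13.36, 12.96 and 12.76 FPKM in the DMSO samples, against 13.07, 12.60 and 13.33 FPKM after DNR. These values overlapped between the groups, and their means were 13.0 ± 0.31 and 13.0 ± 0.37 FPKM, a log2 difference of -0.0029 ± 0.029. This sum was formed after the values were seen. The sum does not stay level under other scalings: it was higher in DNR by 0.19 with samples at a common median and by 0.16 with quantile normalization. The shares of the full-length sum given above compare the transcripts within a sample and do not use a level between samples.

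**Figure D2:**
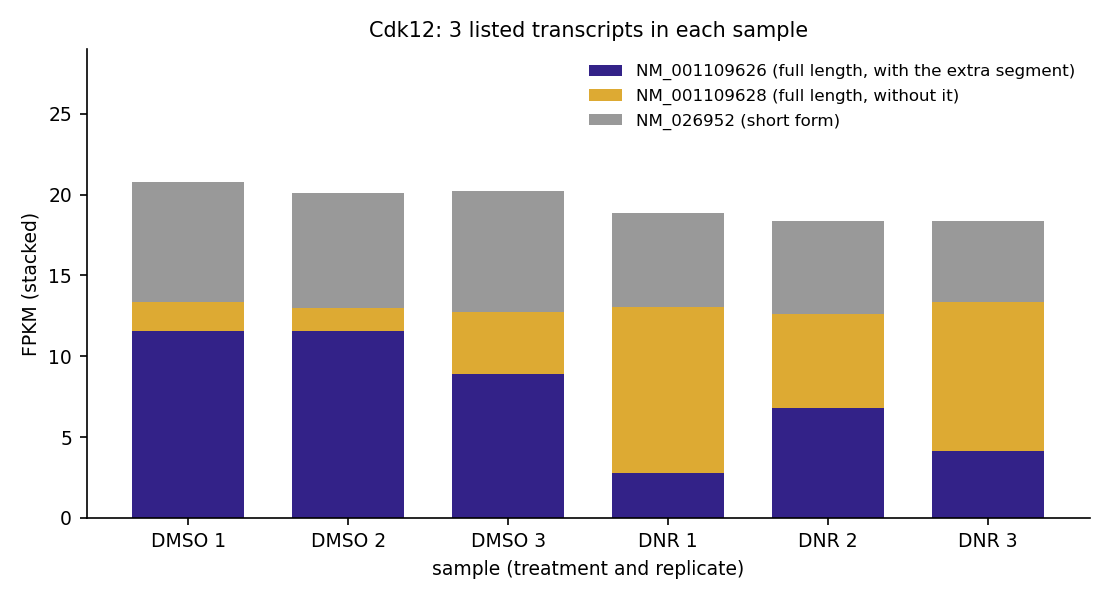
Stacked FPKM of the listed Cdk12 transcripts in each of the 6 samples. The lower blocks are the full-length transcripts, whose proportions differ between DMSO and DNR while their joint top stays between 12.60 and 13.36 FPKM, and the grey block, the short form, is smaller in DNR.

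The short form of Cdk12 was lower in DNR, and with it the sum of the listed transcripts. NM_026952 measured 7.42, 7.13 and 7.49 FPKM in the DMSO samples, against 5.81, 5.74 and 5.06 FPKM after DNR. Its values were close within each group and did not overlap, with means of 7.35 ± 0.19 and 5.54 ± 0.41 FPKM, a ratio of 0.754 and a log2 difference of -0.35 ± 0.06. That difference was -0.17 with samples at a common median and -0.25 with quantile normalization. All 3 listed transcripts together came to 20.78, 20.09 and 20.25 FPKM in the DMSO samples, against 18.88, 18.34 and 18.39 FPKM after DNR, or 20.4 ± 0.36 and 18.5 ± 0.30 FPKM (SD, n = 3). The log2 difference of this sum was -0.13 ± 0.02 as deposited, and its direction turned with other scalings, to 0.073 with samples at a common median and 0.024 with quantile normalization. The share of the short form in the sum does not depend on a factor common to a whole sample. It was 35.7%, 35.5% and 37.0% in DMSO and 30.8%, 31.3% and 27.5% in DNR, a difference of -6.20 percentage points. By the same measure NM_001109626 went from 52.5% to 24.7%, a difference of -27.8 points, and NM_001109628 from 11.4% to 45.4%, or 34.0 points higher. The partner and paralog of CDK12, Ccnk and Cdk13, are not among the listed genes.

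**Figure D3:**
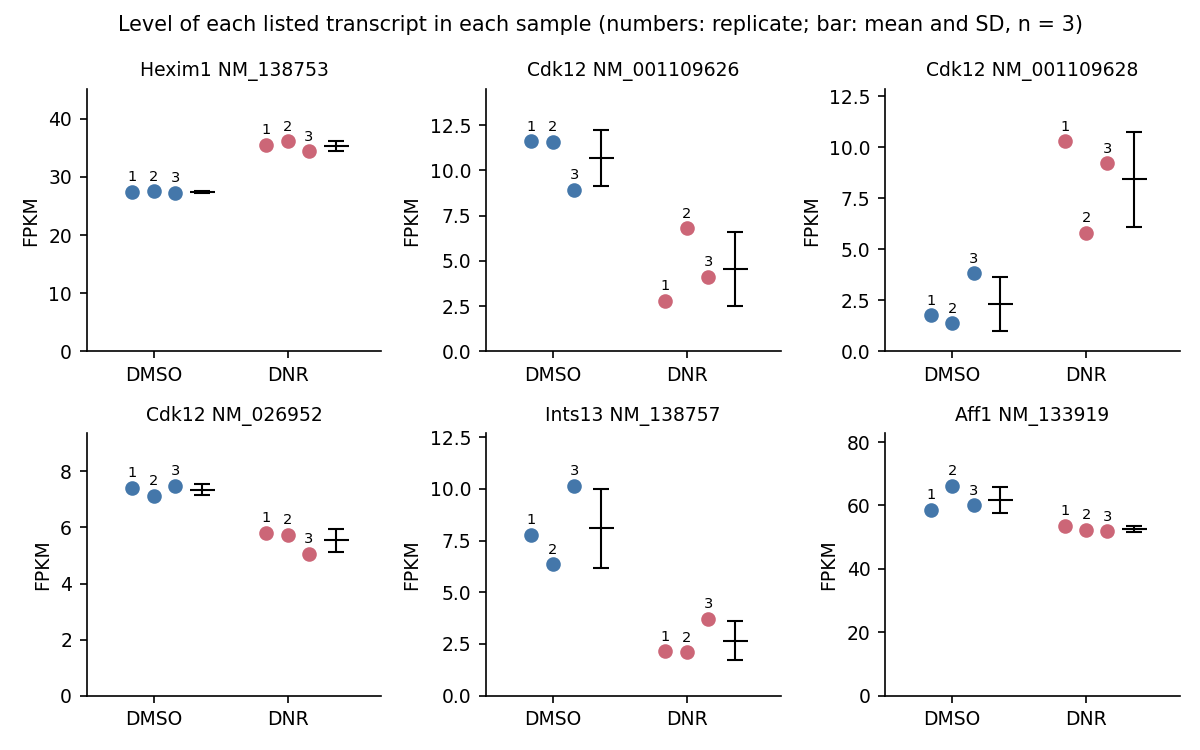
FPKM of each listed transcript of Hexim1, Cdk12, Ints13 and Aff1 in the DMSO and DNR samples, each axis from 0; points are samples with their replicate number and the bars beside them the mean and SD. No panel has overlapping groups, and DMSO replicate 3 and DNR replicate 2 are the samples nearest to the other group in both full-length Cdk12 panels.

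Cdk12 is one of 20 genes in the table with tested transcripts that passed in both directions. For each, the largest fall and the largest rise were added together. The absolute log2 difference of that sum had a median of 0.065 over the 20 genes, from 0.0014 to 0.88. For Cdk12, whose full-length transcripts differed by -1.13 and 1.54, the sum differed by -0.0029 as deposited. That value ran from -0.020 to 0.018 with 1 sample left out and was larger with rescaling, as given above, so no rank among the 20 genes is read from it. These genes were picked for opposite differences.

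Among other genes, the patterns nearest to each listed transcript were found by the root mean square difference of log2(FPKM + 1), centred on each transcript, over the 6 samples. Near to Hexim1 were Cxxc1, which encodes a CpG-binding subunit of a histone methyltransferase complex, at 0.04, and the immediate-early gene Ier5 at 0.06. Cxxc1 had means of 24.2 ± 0.94 FPKM in DMSO and 30.7 ± 1.43 FPKM in DNR. Nearest to Aff1 were transcripts of Gak and Ap1g1, both of clathrin-coated vesicle traffic, at 0.04 and 0.05, and of Litaf, an endosomal membrane protein gene, at 0.05.

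The NM_001109626 transcript of Cdk12 had a close neighbour in a transcript of Papss1, which encodes an enzyme of sulfate activation, at 0.04. That transcript measured 7.95, 8.40 and 6.28 FPKM in the DMSO samples, against 1.60, 4.41 and 2.72 FPKM after DNR. The next were transcripts of the kinase gene Cdk17, at 0.10, and of the transcription factor gene Ubp1, at 0.15. All 3 were lowest within DMSO in replicate 3 and highest within DNR in replicate 2, as the Cdk12 transcript was. This pattern of samples was thus not confined to Cdk12. The 3 were picked for likeness over these same samples, and how many tested transcripts share that order was not counted. NM_026952 was nearest to transcripts of Afg3l1, Fgd6 and Sp4, at 0.03, 0.03 and 0.04. For NM_001109628 and Ints13 the nearest transcripts were farther off. They were at 0.35 to 0.37 (Aktip, Bag6 and Tsc22d3) for the former, and at 0.24 to 0.25 (Slc35c2, Poli and Dync1li2) for Ints13. The 3 nearest to NM_001109628 were at 0.28 FPKM or less in every DMSO sample, where NM_001109628 was at 1.38 FPKM or more. The 3 nearest to Ints13 were listed at 0 in all DNR samples, where Ints13 was not.

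**Figure D4:**
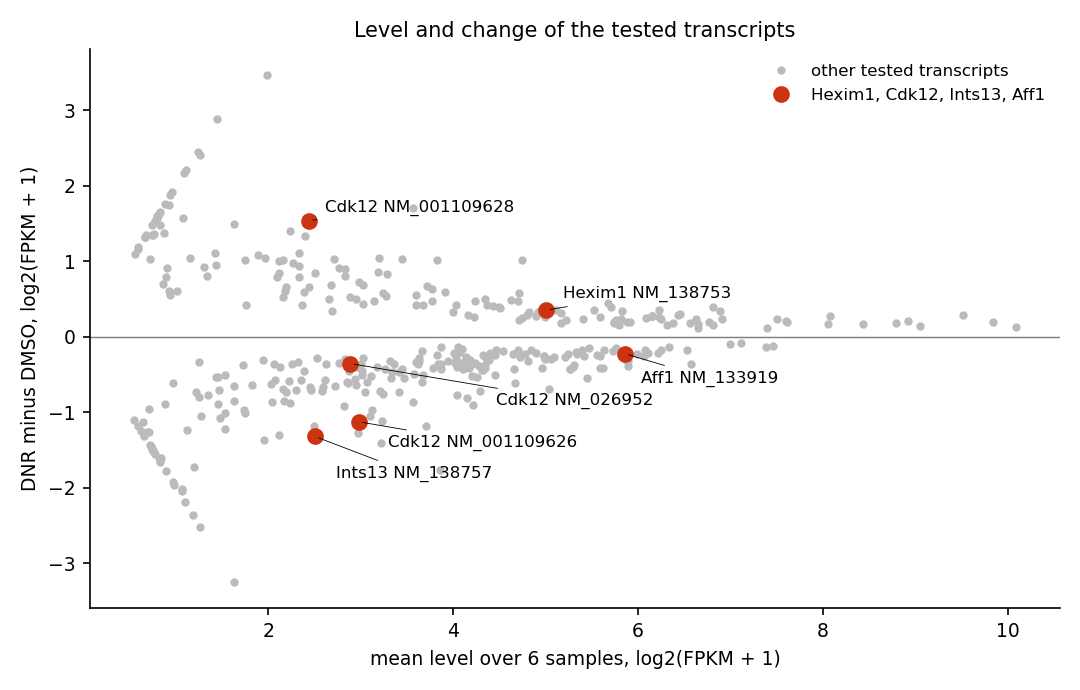
Each point is 1 of the 388 tested transcripts, by its mean level over the 6 samples (horizontal, log2(FPKM + 1)) and its DNR minus DMSO difference (vertical, the same scale); the listed transcripts of the 4 genes are in red. Hexim1 and Aff1 lie among abundant transcripts with small differences, and the full-length Cdk12 transcripts and Ints13 among lower ones with larger differences.

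Few other genes of transcript elongation are in the table, which names only 847 genes in all. Their absence is therefore not read as a result about them. The list held 94 symbols, for P-TEFb and 7SK, the super elongation complex, CDK12 and CDK13, Integrator, DSIF and NELF, the PAF1 complex, other elongation and termination factors, kinases and phosphatases of the polymerase tail, and polymerase II subunits. Of these, 92 were found in the RefSeq table, and the rest could not be matched. Listed are 6 genes with 8 transcripts: the 4 genes above, Ints2 and Rpap2. Rpap2 is a phosphatase gene of the polymerase tail. Its transcript stood at 2.50 FPKM in DNR replicate 2 and at 0 in the other 5 samples. The 6 tested transcripts all belong to the 4 genes, with 2 higher and 4 lower past the threshold (limma), against 99.7% called among all tested. With the samples set to a common median, 4 of the 6 passed, against 273 of all 388, or 70.4%. The choice of the 4 genes used this contrast, and neither count is a result about them. Their median difference was -0.29, beside -0.22 over all 388. A change of the elongation machinery as a whole can therefore not be read from this table.

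The 4 genes differ in length, and in the table at large the direction of the calls differed with gene length. Hexim1 spans 3.40 kb. Among named genes of up to 10 kb that were called in a single direction, there were 43 rises and 4 falls. Ints13 spans 28.2 kb, a class from 10 to 50 kb in which 66 genes rose and 61 fell. Cdk12 spans 78.7 kb, a class from 50 to 100 kb with 20 that rose and 61 that fell. Aff1 spans 163.0 kb, a class over 100 kb with 9 and 53. These spans are those of whole RefSeq genes. The listed Cdk12 models all lie within chr11:98203059-98251564, each under 50 kb, and by their own length would fall in the class from 10 to 50 kb. Genes called in both directions, as Cdk12 was, are not in these counts. The part of gene length in the differences of the 4 genes was not tested.

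Few markers of other cell types are listed, and none of the CD8 T cell markers are. The table names only 847 genes, so this does not measure how many other cells there were. Of 22 marker genes of other cell types, 3 are listed. Their summed level was 59.64 to 64.46 FPKM in DMSO and 71.13 to 81.56 FPKM in DNR. Nearly all of that sum came from Csf1r. Of the 6 markers taken for monocytes and macrophages, the other 5 are not among the listed genes. Csf1r, which marks monocytes and macrophages, measured 63.23, 62.79 and 58.45 FPKM in the DMSO samples, against 69.62, 71.05 and 79.11 FPKM after DNR, higher in DNR like Hexim1. The others were transcripts of Itgax and Ebf1 that reached at most 1.51 and 1.72 FPKM in any sample. The Itgax transcripts went in opposite directions. NM_001363984 measured 1.23, 0.96 and 1.19 FPKM in the DMSO samples and 0 in DNR, and NM_001363985 was at 0 in DMSO and above 0 in DNR. In a bulk sample, a change in the number of cells of a type and a change of RNA per cell cannot be told apart. The part of other cells in the differences above was not tested.

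**Figure D5:**
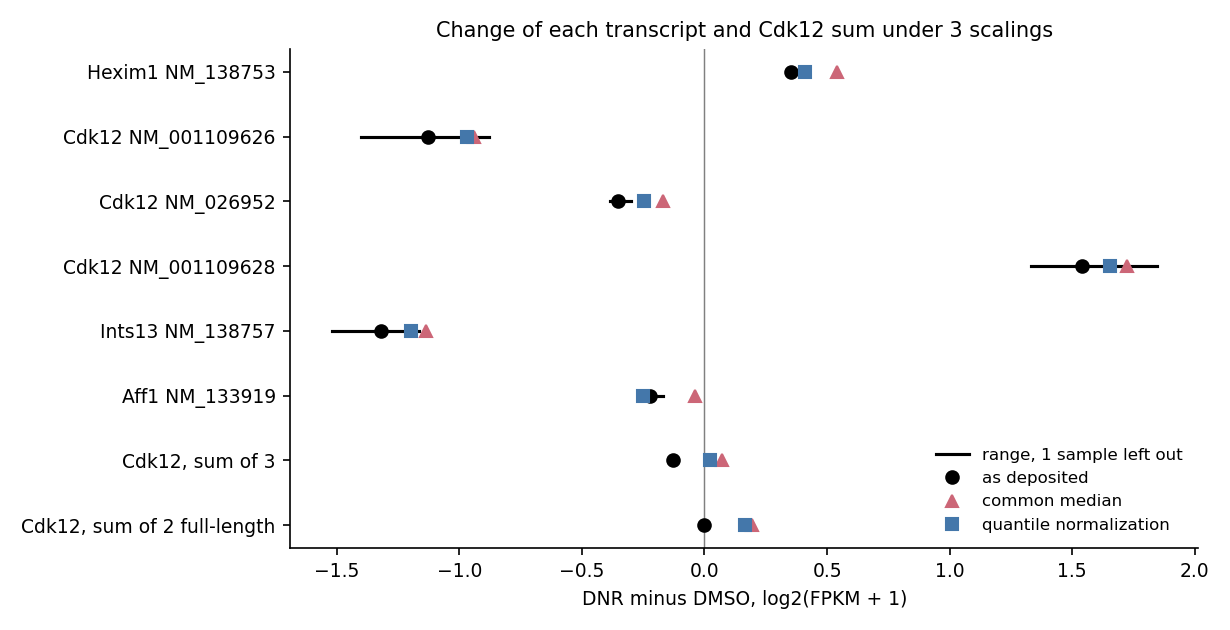
DNR minus DMSO difference on the log2(FPKM + 1) scale for each listed transcript and for the Cdk12 sums, as deposited (circle), with samples at a common median (triangle) and after quantile normalization (square); black lines span the values with 1 sample left out. The transcripts keep their side of 0 under the 3 scalings, Aff1 comes to -0.039 with the common median, and the sum of 3 Cdk12 transcripts crosses 0.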

How the data were processed

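The members and gene lists were chosen with earlier results of these data known. RNA was sequenced from 3 DMSO and 3 DNR samples, with libraries made by a SMARTER mRNA kit, per the labels' protocols. The authors deposited log2(FPKM + 1) values per RefSeq transcript: undoing that scale gave FPKM with 2 decimals for 100.0% of the values (tolerance 1e-06 FPKM). Builds GRCm38 and mm10 are named per the submitters' processing notes. The aligner, the quantification program and the rule for listing a transcript were not given in the sources used here. Linear FPKM were assumed in the design, whose log2 with a pseudocount of 1 equals the deposited scale.

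Accessions, without prefix and version, were matched to the RefSeq table of GRCm38.p6, which named 1013 of 1037 transcripts. Transcript models and Cdk12 sequences came from GENCODE vM21 through its RefSeq table, and matched all 6 transcripts. RefSeq's own ends may differ from those models. All 388 transcripts that reached 1 FPKM in at least 3 samples were fitted with limma 3.58.1 in R 4.3.3 (lmFit, eBayes with trend, two-sided, Benjamini-Hochberg), and the code was tested on simulated data. P-values measure the spread between these samples, which may be technical. Named were all transcripts of the 4 genes, all listed genes of the elongation list, the 3 nearest patterns per transcript and listed cell type markers. A nearest pattern of Hexim1 is not reported here.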

Additional observations from a re-analysis of the deposited data

How the results depend on the processing

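Read totals were not used here, so depth sets no limit that can be stated. The transcripts that passed across the table numbered 387 as deposited, 376 to 383 with 1 sample left out and 566 of 1037 with no filter beyond a value above 0. Setting the samples to a common median raises DNR relative to DMSO by 0.18, and 106 were then lower in place of 220, so that 61.2% of calls were higher and 38.8% lower, against 43.2% and 56.8% as deposited. Quantile normalization gave 149 higher and 171 lower. With the replicate number as a block, 385 passed. Deviations of same-numbered samples correlated at -0.05, 0.05 and 0.04. No pairing by number was seen in these values, but with 3 samples per group they cannot show that there was none. Of the elongation list 6 passed with the block, with each sample left out and with the other settings, except 4 with the common median, where those passing among all 388 fell from 387 to 273 (70.4%).

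Differences that moved by more than the replicate SD did so with rescaling alone. With the common median they were 0.54 for Hexim1, -0.17 for the short form of Cdk12, -0.039 for Aff1, 0.073 for the sum of 3 Cdk12 transcripts (a reversal) and 0.19 for the full-length sum. With quantile normalization they were 0.41 for Hexim1, -0.25 for the short form, 0.024 for the sum of 3 (a reversal) and 0.16 for the full-length sum. The cause was not tested. Both scalings were estimated on this list of transcripts alone. With 1 sample left out the range was 0.34 to 0.37 for Hexim1, -1.40 to -0.88 for NM_001109626, 1.33 to 1.84 for NM_001109628, -0.38 to -0.30 for NM_026952, -1.52 to -1.16 for Ints13 -0.26 to -0.17 for Aff1 and -0.020 to 0.018 for the full-length sum of Cdk12.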
